A study of Caenorhabditis elegans with 2 samples.

Results

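The genes described here are 40 axon guidance and cell migration genes of Caenorhabditis elegans, out of 19985 protein-coding genes in the annotation. They were chosen by name for their known functions, with earlier results of these data known. A binding summit was counted for a gene when it lay within 2000 bp of any of its annotated transcription start sites (TSSs) or inside the gene body. The study mapped the genomic positions of UNC-39 by chromatin immunoprecipitation and sequencing (ChIP-seq) in whole embryos of mixed stage and mixed sex. All libraries came from strain OP186, which carries the unc-119(ed3) mutation and the integrated transgene wgIs186, from which UNC-39 is made as a fusion with enhanced green fluorescent protein (eGFP). The study has 1 group and 2 biological replicates. The genes were therefore set against the other 19945 protein-coding genes and not against another condition. The tagged protein was made from a transgene, and the labels name unc-39 as the antibody although the experiment is described as directed at the eGFP fusion. Whole embryos were used, so signal in few cells and weak signal in many cells cannot be told apart.

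UNC-39 is a homeodomain protein related to the vertebrate Six4 and Six5 factors, and unc-39 mutants are known for misplaced migrating cells and for axon defects. Axon guidance begins with secreted cues such as netrin, Slit, semaphorins and ephrins. Receptors on the growth cone read these cues, adhesion molecules and integrins hold the cell to its substrate, and Rac GTPases, Ena and their partners reshape the actin cytoskeleton inside. Many of the same molecules steer migrating cell bodies in the worm, which is why the unc (uncoordinated), mig (migration) and sax (sensory axon) names occur together.

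Of 4 deposited lists on build ce11, the called list held 267 regions that passed the authors' irreproducible discovery rate threshold. Relaxed lists, which contain background by design, comprised 9046 regions for the pooled replicates, 15880 for replicate 1 and 30000 for replicate 2. A relaxed region is not a call. The called list was identical to the 267 strongest regions of the pooled list. Signal is the authors' own peak score for each region, and here it ranks regions within 1 list only. No summit in any of the 4 lists was in range of unc-39 itself, the tagged gene. No read depth is recorded in the sources used here, so the depth behind each value is unknown.

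Called summits were in range of 4 of the 40 guidance and migration genes, prkl-1, unc-51, unc-115 and unc-33, and unc-33 had a pair of them. That is 10% of the genes (95% Clopper-Pearson interval 2.79% to 23.7%, counting error only), while 1.63% of all protein-coding genes had a called summit in range. The guidance and migration genes were long, with a median length of 9357 bp against 2026 bp over all protein-coding genes, and a long gene has more room for a summit. The share in other genes, taken per length class and weighted by the number of members in each class (the length-standardised share), was 2.96%. That lies inside the interval above, and the 40 genes, chosen by name, are not a random sample. None of the 8 secreted cues and matrix proteins, 8 receptors and 7 adhesion molecules, integrins and proteoglycans had a called summit, where the length-standardised shares of other genes were 2.72%, 3.26% and 2.80%. At shares that low, 0 of so few genes does not set these roles apart. With the 267 strongest regions of each replicate in place of the called list, replicate 1 gave 3 genes (prkl-1, unc-115 and unc-51) and replicate 2 gave 2 (unc-115 and unc-33). unc-115 was found in both, but through different sites. The closest such sites of the replicates were 509 bp apart, so none of the 40 genes had a site among the 267 strongest of each replicate within 200 bp. That count was not made for other protein-coding genes, so it does not set the 40 genes apart. With replicate 1 alone the length-standardised share of other genes was 3.04%, against 7.5% of the 40 genes. With replicate 2 alone it was 3.44%, against 5% of the 40 genes. The 3 genes of replicate 1 include unc-115 through its site of rank 110, 13 bp from a pooled summit inside tRNA gene WBGene00014319. That site cannot be assigned to unc-115 rather than to the tRNA gene.

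The sequences under the 5 called summits are shown because they are the strongest sites at these genes. Each line gives a window of ce11, taken from the RefSeq copy of WBcel235, centred on the summit with 100 bases to each side and printed 5′ to 3′ on the strand of the gene. Capitals mark matches to the motifs searched, which were TGACACC (Six4 type), TCAGGTTTC (MEF3), GAGAGAGA, GAGACGCA, CAGCTG (an E-box) and TTTTTTTT, on both strands. TGCGTCTC and TCTCTCTC are GAGACGCA and GAGAGAGA read on the other strand. The windows are chrIV:6985864-6986064 (prkl-1, minus strand), chrV:20005862-20006062 (unc-51, minus strand), chrX:10146681-10146881 (unc-115, plus strand), chrIV:3521044-3521244 (unc-33, first site, plus strand) and chrIV:3524750-3524950 (unc-33, second site, plus strand).
prkl-1: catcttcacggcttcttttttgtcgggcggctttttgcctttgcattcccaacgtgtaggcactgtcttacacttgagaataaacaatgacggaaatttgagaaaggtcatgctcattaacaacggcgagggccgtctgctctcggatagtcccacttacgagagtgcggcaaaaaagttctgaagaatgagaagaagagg
unc-51: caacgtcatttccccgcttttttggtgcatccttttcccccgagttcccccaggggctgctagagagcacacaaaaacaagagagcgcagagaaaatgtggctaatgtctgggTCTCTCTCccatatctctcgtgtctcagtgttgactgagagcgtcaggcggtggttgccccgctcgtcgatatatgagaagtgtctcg
unc-115: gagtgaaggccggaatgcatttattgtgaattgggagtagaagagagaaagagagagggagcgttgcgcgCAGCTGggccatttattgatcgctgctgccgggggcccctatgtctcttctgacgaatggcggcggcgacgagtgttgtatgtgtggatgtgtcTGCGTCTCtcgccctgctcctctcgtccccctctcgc
unc-33 first site: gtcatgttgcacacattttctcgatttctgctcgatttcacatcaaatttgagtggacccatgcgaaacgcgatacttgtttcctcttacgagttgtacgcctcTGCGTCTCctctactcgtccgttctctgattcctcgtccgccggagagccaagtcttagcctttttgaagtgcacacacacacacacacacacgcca
unc-33 second site: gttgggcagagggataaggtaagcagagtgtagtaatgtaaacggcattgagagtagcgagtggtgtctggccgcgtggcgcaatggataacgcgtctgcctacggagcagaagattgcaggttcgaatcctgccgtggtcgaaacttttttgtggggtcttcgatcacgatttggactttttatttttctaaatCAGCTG

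prkl-1 (WBGene00022727, chromosome IV, 6978742 to 6986935, minus strand) encodes the worm Prickle, a planar cell polarity protein. Its called summit at 6985964 lay in an intron, 971 bp downstream of its TSS, and had the highest signal of any summit in range of the 40 genes, 57.5 (rank 117 in the pooled list). The strongest summit within 200 bp had signal 29.9 (rank 177) in replicate 1 and 22.3 (rank 280) in replicate 2, so it stood near the top of both lists. Noncoding RNA genes ZK381.39 and ZK381.47 also overlap this position. No searched motif was found in its window.

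unc-51 (WBGene00006786, chromosome V, 19995986 to 20004485, minus strand) encodes a serine/threonine kinase of the ULK family that is needed for axon elongation. The called summit at 20005962 was 1477 bp upstream of the TSS, with signal 52.2 (rank 154). It had signal 33.9 (rank 111) in replicate 1, 2 bp away, and 16.3 (rank 1089) in replicate 2, 132 bp away. The site was thus within the first 0.70% of the list of replicate 1 and the first 3.63% of the longer list of replicate 2. A GAGAGAGA match was present in the window. It is farther than 1000 bp from the TSS, so unc-51 drops out when the distance is shortened to that.

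unc-115 (WBGene00006839, chromosome X, 10146892 to 10153142, plus strand) encodes an actin-binding protein of the abLIM family that acts downstream of Rac in axon guidance. Its called summit at 10146781, 111 bp upstream of the TSS, was the nearest called summit to a start site among the 40 genes and had signal 51.03 (rank 170). Replicate 1 had signal 20.4 (rank 795) there and replicate 2 had 26.2 (rank 148). The window had the highest GC content of the 5, 57.7%, and held CAGCTG and GAGACGCA. Of 5 pooled summits in range of unc-115, 4 were relaxed only. The strongest of them lay in a coding exon, with signal 38.9 (rank 428). A weaker intronic summit, with signal 31.1 (rank 990), lay inside the tRNA gene WBGene00014319, so it cannot be assigned to unc-115 rather than to the tRNA gene. That position ranked 110 in replicate 1 and had no summit within 200 bp in replicate 2. The weakest of the 5 summits, 1670 bp upstream with signal 19.5 (rank 7220), lay inside another tRNA gene, WBGene00014318.

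unc-33 (WBGene00006769, chromosome IV, 3516886 to 3526602, plus strand) encodes the worm member of the CRMP family, which organises microtubules in axons. The first site, at 3521144, lay in an intron 1460 bp downstream of the nearest unc-33 TSS and had signal 46.5 (rank 237). Replicate 1 had signal 20.5 (rank 773) there, and replicate 2 had 20.7 (rank 391). The second site, at 3524850, was farther inside the gene, 5166 bp from the nearest unc-33 TSS, with signal 49.1 (rank 192). It was supported by signal 25.5 (rank 333) in replicate 1 and 26.3 (rank 144) in replicate 2. This second summit lay inside the tRNA gene WBGene00023115, within an unc-33 intron, so it cannot be assigned to unc-33 rather than to the tRNA gene. Its nearest protein-coding TSS was that of M57.2, at 2504 bp. The first site was not near a tRNA, snoRNA or snRNA gene, and with such summits left out unc-33 stayed among the 4 genes.

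A relaxed unc-33 summit stood just downstream of the first called site, at 3521381, with signal 32.9 (rank 793) in the pooled list. It had signal 27.5 (rank 123) in replicate 2 and no summit within 200 bp in replicate 1. Its window carried a pair of TGACACC matches, read here as GGTGTCA on the gene's strand. The second sequence below is the relaxed summit 324 bp upstream of unc-76, a gene of the FEZ family needed for axon bundling. It is shown for the GAGACGCA match that it shares with the called windows of unc-115 and the first unc-33 site. The windows are chrIV:3521281-3521481 (unc-33) and chrV:15071336-15071536 (unc-76), both on the plus strand.
unc-33 relaxed site: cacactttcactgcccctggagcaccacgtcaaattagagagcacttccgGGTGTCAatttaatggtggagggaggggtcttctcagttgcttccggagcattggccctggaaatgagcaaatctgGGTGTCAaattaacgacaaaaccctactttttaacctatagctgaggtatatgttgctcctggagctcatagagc
unc-76 relaxed site: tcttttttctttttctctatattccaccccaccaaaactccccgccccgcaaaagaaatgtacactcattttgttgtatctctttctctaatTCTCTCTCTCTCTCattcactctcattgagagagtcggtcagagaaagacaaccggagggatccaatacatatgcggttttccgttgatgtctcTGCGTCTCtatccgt

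GAGACGCA was found in 2 of the 5 called windows of these genes, against 29 of all 267 called windows (10.9%). Over all pooled windows of the genes it occurred in 4 (3.48%), against 3.53% of all pooled windows, and those were at unc-115, unc-33, unc-73 and unc-76. TGACACC was in 0 of the 5 called windows, against 13 of 267 (4.87%). In the pooled list TGACACC was in 3 windows of the genes (2.61%), at unc-33, vab-1 and lad-2, against 3.47% of all pooled windows. The exact MEF3 sequence was in none of the windows of the genes, against 0 of all 267 called and 17 of all 9046 pooled windows (0.19%). In the called windows GAGAGAGA was in 1 of the 5, against 34 of 267 (12.7%). CAGCTG was in 2 of the 5 called windows, against 24 of 267 (8.99%), and TTTTTTTT in 0, against 21 (7.87%). GAGAGAGA was in 8 pooled windows of the genes (6.96%), against 4.90% of all pooled windows, and CAGCTG was in 9 (7.83%), against 5.46%. TTTTTTTT was in 6 (5.22%), against 12.5% of all pooled windows. The counts are small, and none of these differences was tested. A match describes the letters in the window and does not identify a binding site. Matches to GAGAGAGA and GAGACGCA can overlap at shared letters.

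**Figure D1:**
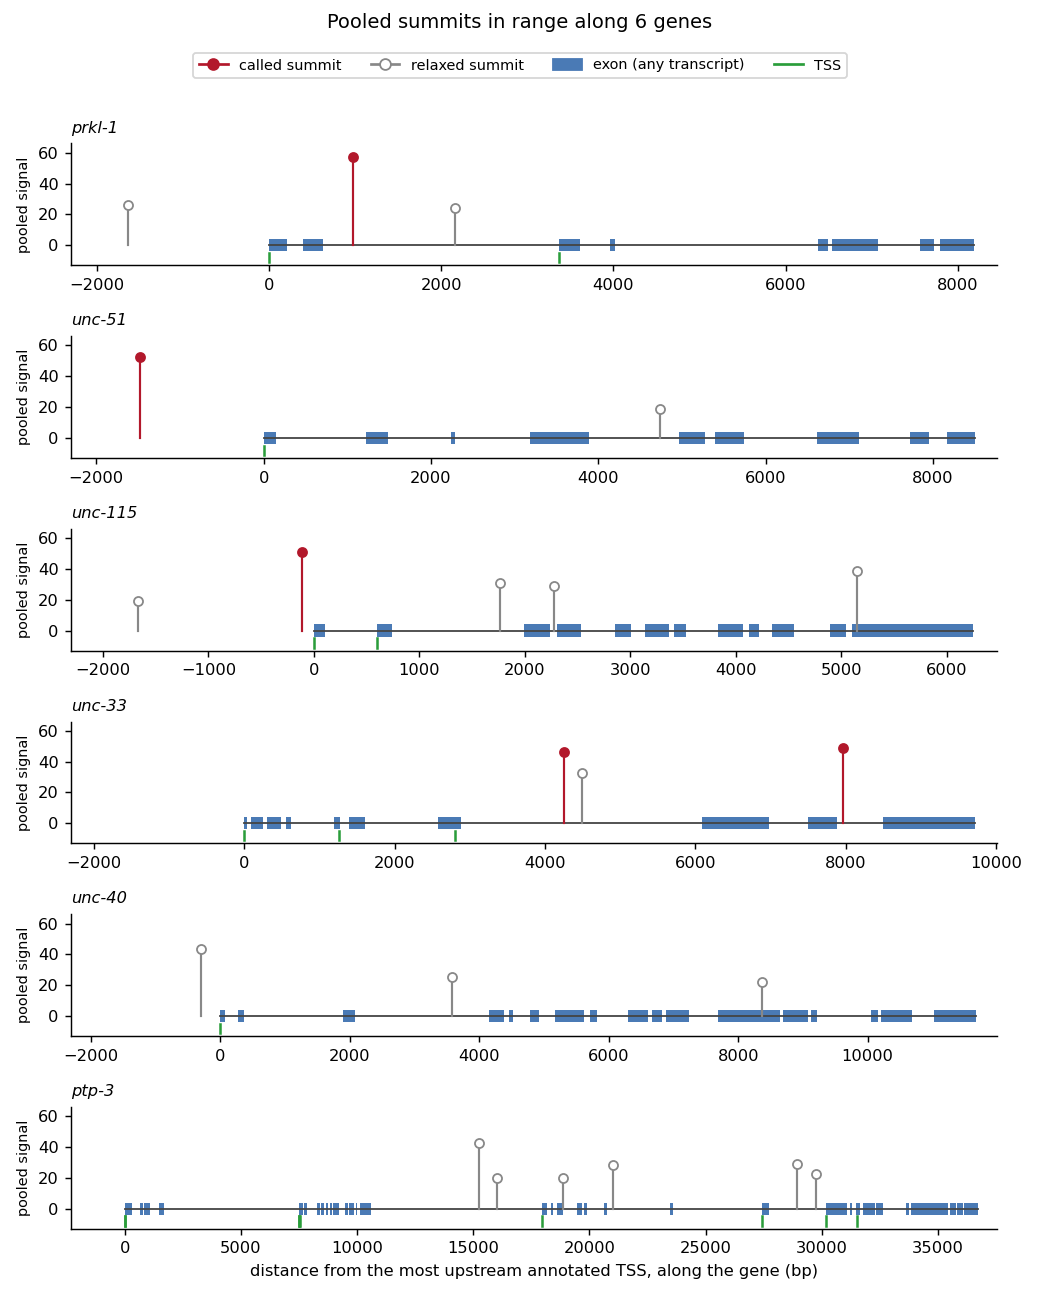
Pooled summits in range along the 6 genes with the highest pooled signal. The x axis is the distance in bp from the most upstream annotated TSS along the gene, the y axis is the authors' signal in the pooled list, filled red points are called summits, open grey points are relaxed summits, blue boxes are exons of any transcript and green ticks are TSSs. The called summits stand between 46.5 and 57.5, upstream of unc-51 and unc-115 and inside prkl-1 and unc-33.

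Below the called threshold many more of the genes had a summit in range, though relaxed regions are not calls. The deposited −log10 q value was 2.20 at the called summit of lowest signal, the first unc-33 site. At relaxed summits it was 1.92 at unc-40 (rank 290), 0.53 at mab-20 (rank 976) and 0.018 at mig-6 (rank 8988). Among the 1000 strongest pooled regions, 15 of the 40 genes had a summit in range (37.5%), against a length-standardised 12.1% of other genes and 5.53% of all protein-coding genes. The limit of 1000 regions was chosen after the data were seen. In the 1000 strongest regions of 1 replicate the count was lower. It was 8 genes (20%) with replicate 2 alone, against a length-standardised 11.8% of other genes, and 12 (30%) with replicate 1 alone, against 11.7%. At 500 regions there were 7 genes (17.5%), against a length-standardised 5.95% and 2.91% of all genes. At 2000 regions there were 20 (50%), against 22.4% and 10.3%, and at 4523 regions 27 (67.5%), against 41.3% and 21.3%. In the whole pooled list 29 of the 40 genes had a summit in range (72.5%, 95% interval 56.1% to 85.4%), against a length-standardised 62.0% and 37.6% of all genes. The length-standardised 62.0% lies inside that interval. With the 9046 strongest regions of replicate 2 alone there were 33 genes (82.5%), against a length-standardised 62.5%, and with those of replicate 1 alone there were 33, against 63.0%. The plot by depth into the list shows the members above other genes of their length at each of the 6 depths, with the widest gap at 2000 regions. Each smaller set of regions lies inside the larger ones, so the depths are not independent.

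**Figure D2:**
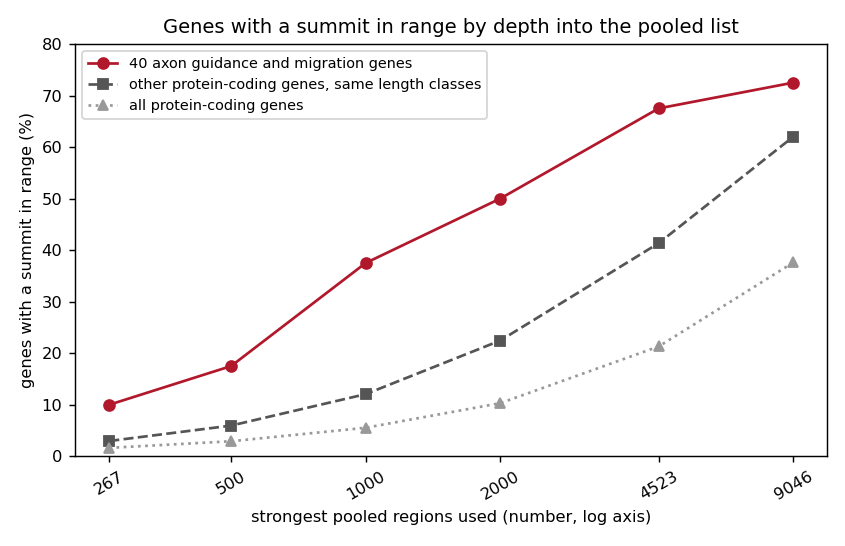
Percentage of genes with a summit in range (y axis) by the number of strongest pooled regions used (x axis, log scale). Red circles are the 40 axon guidance and migration genes, dark squares are other protein-coding genes weighted to the same length classes and light triangles are all protein-coding genes; the genes reach 37.5% at 1000 regions, against 12.1% for other genes of their length.

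In the relaxed list of replicate 1, 37 of the 40 genes had a summit in range (92.5%), against a length-standardised 79.9% and 55.9% of all genes. In that of replicate 2 there were 38 (95%), against 92.2% and 77.4%, a difference of 2.76 percentage points from other genes of their length. A summit in range in both replicate lists was found at 35 of them (87.5%), against 76.1% and 48.1%. None of the 40 genes lacked a summit in all of the lists. That count was not made for other genes, of which replicate 2 alone reached a length-standardised 92.2%, so it does not set the 40 genes apart. Across these 35 genes the strongest signal in replicate 1 and in replicate 2 had a Spearman correlation of 0.50, which is a description over genes read in the same pair of libraries. The strongest summits of a gene could be different sites in the 2 lists, so the value does not measure agreement at a site. At sax-3 they lay 1633 bp upstream of a TSS in replicate 1 and 6936 bp downstream of one in replicate 2. Per kb of searched sequence the genes held 0.194 pooled summits, against 0.0979 for other genes weighted by length class (1.98-fold). The same ratio was 1.59-fold in replicate 1 and 1.49-fold in replicate 2.

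The genes were also counted by length. All 4 genes with a called summit were among the 13 of 5000 to 10000 bp (30.8%), against 65 of 2222 other genes of that length (2.93%). The 8 genes of 2000 to 5000 bp had none, as did the 11 of 10000 to 20000 bp and the 8 of 20000 bp or more. Other genes of those lengths had a called summit in 1.48%, 3.55% and 3.68%. In the pooled list the share was higher with each step in length, in these genes and in other genes. The share of members was 50% at 2000 to 5000 bp, against 37.2% of other genes. It was 69.2% against 56.1% at 5000 to 10000 bp, 72.7% against 68.6% at 10000 to 20000 bp, and 8 of 8 against 87.4% from 20000 bp. Each class holds at most 13 of the genes.

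**Figure D3:**
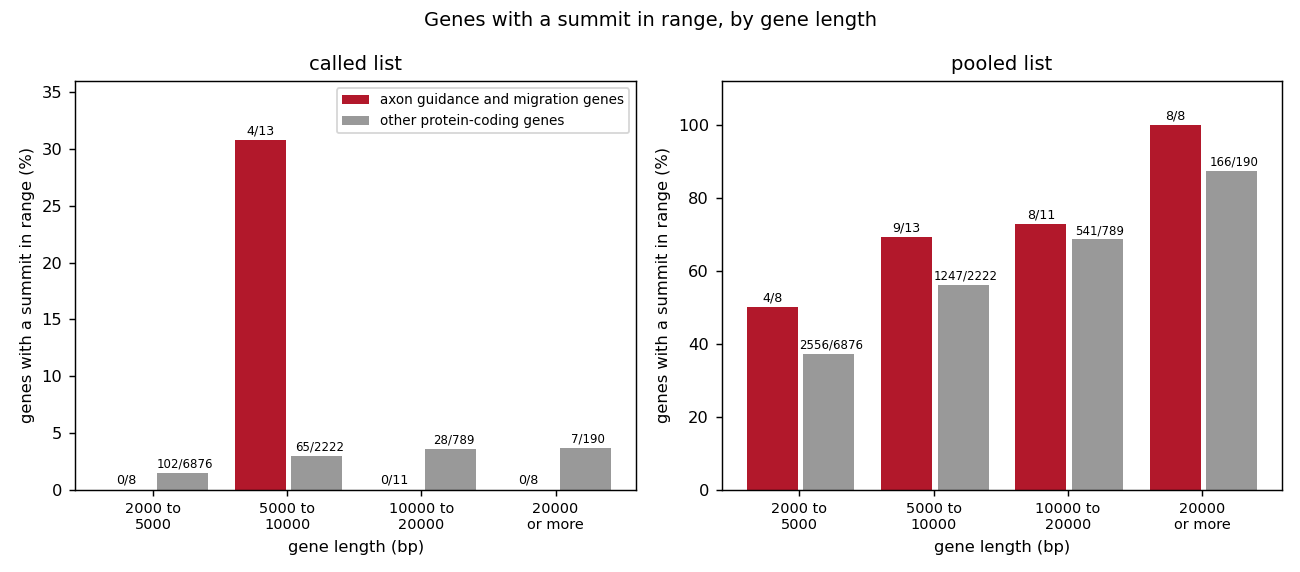
Percentage of genes with a summit in range (y axis) by gene length in bp (x axis), in the called list at left and in the pooled list at right. Red bars are the axon guidance and migration genes, grey bars other protein-coding genes, and the fractions give genes with a summit over genes in the class; the 4 called genes are all in the class of 5000 to 10000 bp.

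The 8 secreted cues and matrix proteins had the fewest pooled summits of the roles, 8, and the lowest median of strongest signals, 23.9. These values were not adjusted for length, and over all members gene length and number of pooled summits had a Spearman correlation of 0.60. The 8 secreted cue and matrix genes were 2565 to 15174 bp long. A pooled summit was in range of 4 of them (50%, against a length-standardised 54.5% of other genes), mab-20 (a semaphorin), unc-129 (a TGF-beta family ligand), vab-2 (an ephrin) and mig-6 (papilin), with strongest signals of 18.4 to 31.2. mab-20 led with signal 31.2 (rank 976), 102 bp upstream of its TSS. Near that summit the strongest signal in replicate 1 was 23.8 (rank 412), while replicate 2 had 7.18 (rank 20201), so the site rested mainly on replicate 1. unc-6 (netrin), slt-1 (Slit), madd-4 (an ADAMTS-like secreted protein) and mig-17 (an ADAMTS metalloprotease) had no pooled summit in range. In the replicate lists unc-6 ranked no higher than 11353 of 15880 in replicate 1 and 12019 of 30000 in replicate 2. slt-1 had no summit in replicate 1, and its strongest in replicate 2 ranked 9353.

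All 8 receptor genes had a pooled summit in range, 39 summits together, with strongest signals between 23.2 and 43.3. These genes ranged from 4042 to 36709 bp in length, and the length-standardised share of other genes was 70.1%. unc-40, the DCC-type netrin receptor, had the highest signal of the genes without a called summit, 43.3 (rank 290), just under the lowest called signal of 44.4. That summit was 289 bp upstream of the unc-40 TSS and ranked 336 in replicate 1 and 1441 in replicate 2. ptp-3, a receptor tyrosine phosphatase of the LAR family, followed with an intronic summit of signal 42.7 (rank 303). It ranked 273 in replicate 1 and 2748 in replicate 2. sax-3, the Robo receptor of Slit, had its strongest summit 1582 bp upstream, with signal 36.3 (rank 545), ranking 437 in replicate 1 and 4265 in replicate 2. At all 3 receptors the site stood deeper in the list of replicate 2 than in that of replicate 1, also as a share of each list. vab-1, the Eph receptor, had the most pooled summits of any of the 40 genes, 12, and the strongest, in an intron, had signal 33.7 (rank 722). It ranked 504 in replicate 1 and had no summit within 200 bp in replicate 2. unc-5, the netrin receptor of repulsion, had 7 pooled summits with a strongest signal of 27.4. The plexins plx-1 and plx-2 and the transmembrane protein mig-13 had strongest signals of 23.2, 25.9 and 25.7.

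Among 7 adhesion molecules, integrins and proteoglycans, 5 had a pooled summit in range (71.4%, against a length-standardised 58.7%). sax-7, an L1-type adhesion molecule, had signal 38.6 (rank 449) at a summit 234 bp upstream of an internal TSS. It ranked 2023 in replicate 1 and 358 in replicate 2, the opposite order to the receptors above. sdn-1, the worm syndecan, had signal 37.0 (rank 516) in an intron, ranking 631 in replicate 1 and 7941 in replicate 2. That summit was 2059 bp from the sdn-1 TSS, while the TSS of F57C7.4 was nearer, at 1710 bp. The noncoding RNA gene F57C7.10 also overlaps it. pat-3, the beta integrin subunit, had signal 27.3 (rank 1773) at 1922 bp upstream, though ccdc-47 had the nearest TSS. A called summit with signal 53.2 (rank 146) lay 2716 bp upstream of pat-3, outside the limit, and 102 bp from the TSS of ccdc-47. lad-2, another L1-type molecule, and lon-2, a glypican, had strongest signals of 26.8 and 23.3. The alpha integrin genes ina-1 and pat-2 had no pooled summit.

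All 4 cadherin and planar polarity genes had a pooled summit in range, against a length-standardised 57.6% of other genes. Apart from prkl-1, the strongest was at vang-1, the Van Gogh gene, with signal 30.2 (rank 1131) at 374 bp upstream of its TSS. It ranked 4379 in replicate 1 and 1385 in replicate 2. The cadherin genes cdh-4 and fmi-1 (Flamingo) had strongest signals of 24.5 and 20.8.

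Of the 8 regulators of actin, Rac and Ena, 4 had a pooled summit in range (50%, against a length-standardised 64.7%). unc-115, mig-10, unc-53 and unc-73 had 27 pooled summits among them, with strongest signals from 28.7 to 51.03. mig-10, the lamellipodin-type adaptor, had signal 34.7 (rank 656) in an intron, ranking 848 in replicate 1 and 2634 in replicate 2. unc-53, a neuron navigator protein, had signal 33.1 (rank 778), and unc-73, the Trio-type exchange factor, had 28.7 (rank 1417). unc-34 (Ena), mig-2 and ced-10 (Rac GTPases) and mig-15 (a Nck-interacting kinase) had no pooled summit in range. These include the shortest of the 40 genes, mig-2 at 2085 bp, and also unc-34 at 14209 bp. A called summit with signal 63.5 (rank 89) lay 3908 bp upstream of the nearest unc-34 TSS, where the nearest protein-coding start was that of Y50D4C.12, at 3783 bp.

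Among 5 axon outgrowth and cytoskeleton genes, unc-51, unc-33, unc-44 and unc-76 had a pooled summit, against a length-standardised 64.9% of other genes, and vab-8, a kinesin-like gene, had none. unc-44, a neuronal ankyrin, had signal 34.6 (rank 660) at 1056 bp upstream, ranking 1877 in replicate 1 and 1075 in replicate 2. It also had a called summit outside the limit, at 4738 bp upstream with signal 48.4 (rank 202), for which unc-44 was the nearest protein-coding start. Giving each called summit to the gene with the nearest TSS therefore returned 5 of the 40 genes (12.5%), with unc-44 added, against a length-standardised 2.29% of other genes and 1.3% of all protein-coding genes. unc-76 had signal 33.3 (rank 756), ranking 2536 in replicate 1 and 2215 in replicate 2. At the edge of the 2000 bp limit, the summits just inside were those of pat-3 (above) and of vab-1, at 1892 bp with signal 19.1. Those just outside were of sax-3 at 2100 bp (18.4) and cdh-4 at 2347 bp (19.0).

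The 11 genes without a pooled summit were unc-6, slt-1, madd-4, mig-17, ina-1, pat-2, unc-34, mig-2, ced-10, mig-15 and vab-8. Each had a summit in at least 1 replicate list, a count that was not made for other genes. slt-1, mig-2 and vab-8 had none in replicate 1, and ina-1 and ced-10 had none in replicate 2. Their strongest ranks were 2029 for ina-1 in replicate 1 and 2106 for mig-2 in replicate 2, weaker than every replicate rank given above for the called summits.

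**Figure D4:**
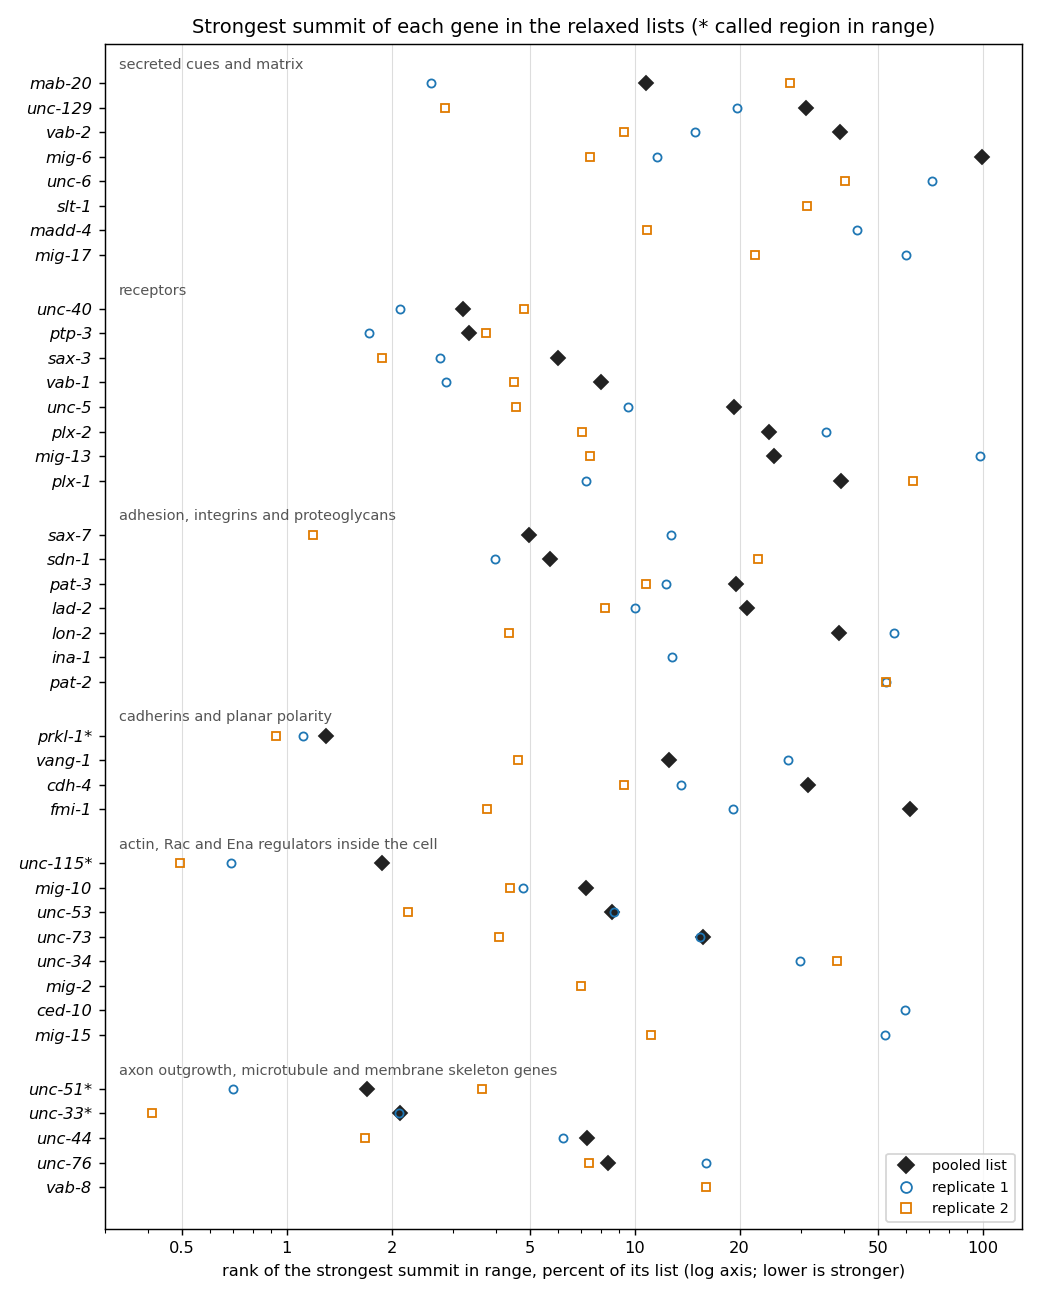
Rank of the strongest summit in range of each gene as a percentage of its list (x axis, log scale, lower is stronger), with the genes down the y axis by role. Black diamonds are the pooled list, blue circles replicate 1, orange squares replicate 2, and an asterisk marks a called summit; prkl-1 is within the first 1.29% of the pooled list, while 11 genes have no pooled point.

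The pooled summits in range of the genes lay mostly inside them. Introns held 69 (60%), coding exons 22 (19.1%), sequence upstream of the gene 22 (19.1%) and 5′ UTRs 2 (1.74%). At other genes of at least 2000 bp, introns held 34.1% of 7132 pooled summits, coding exons 26.9% and upstream sequence 32.1%. Apart from the limit of 2000 bp, neither gene length nor intron content was matched between the sets. Their part in this difference was not tested. A protein-coding TSS of the same gene was the nearest one for 93 of these summits (80.9%). Within 1000 bp of an own TSS there were 30, within 2000 bp 60, and 55 were farther inside the gene. A summit within 200 bp was found in both replicate lists for 63 of them (54.8%), against 52.1% of all pooled summits, in replicate 1 only for 19 and in replicate 2 only for 32. The same windows at these summits had a median GC content of 42.8%, against 40.8% at all pooled summits. Among the 29 genes with a pooled summit the strongest signal had a median of 31.2, against 22.6 in 7488 other genes with one, which were shorter. By length it was 28.0 against 22.5 at 2000 to 5000 bp, and 33.3 against 22.8 at 5000 to 10000 bp. It was 25.6 against 23.9 at 10000 to 20000 bp, and 33.8 against 27.2 from 20000 bp.

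The other genes of the pathways were counted in 8 lists. A called summit was in range of 3 of them (2.68%), against a length-standardised 2.37% of other genes. These 3 were smp-1, a semaphorin, mom-5, a Frizzled receptor of Wnt signals, and lam-1, the laminin beta subunit. The smp-1 summit was in an intron, 1169 bp downstream of its TSS, with signal 46.6 (rank 233), ranking 1214 in replicate 1 and 207 in replicate 2. mom-5 had its summit 773 bp upstream, with signal 48.5 (rank 198), ranking 125 in replicate 1 and 3236 in replicate 2. The summit at lam-1, with signal 46.5 (rank 234), was downstream of the gene and nearest to the TSS of W03F8.4, at 291 bp. No list had more than 1 gene with a called summit. In the pooled list 74 of these genes (66.1%) had a summit, against a length-standardised 49.3%. The share was 90.0% of 10 integrin adhesion complex genes, against a standardised 49.7%, and 88.2% of 17 distal tip cell and matrix genes, against 57.9%. It was 82.4% of 17 further netrin, Slit, semaphorin and ephrin pathway genes, against 55.2%, and 80% of 15 Wnt genes, against 45.9%. The heparan sulfate genes (8) had 50%, against 44.3%. The FGF pathway genes (5) had 40% against 51.1%, and the transcription factors of migration and guidance (18), unc-39 included, had 38.9% against 49.8%. These shares are descriptions, and the members of the lists were chosen with earlier results known.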

How the data were processed

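ChIP-seq was done in 2 biological replicates of 1 group, per the labels. The deposited files are narrowPeak lists, of which the 4 on ce11 were used and the ce10 lists were not, since no ce10 annotation was used here. Signal is the score of the authors' peak caller, used within a list only, and the deposited −log10 q value served as another ranking. The deposited summit offset gave each position as a 1-based coordinate. Relaxed lists were made for the replicates and for their pool, and the called list came from the irreproducible discovery rate procedure, per the text files deposited by the authors. Not given in the sources used here are the aligner, the peak caller, their versions, the depth and the treatment of reads that map to several places, which bears on tRNA genes. The control was not analysed here.

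Genes came from Ensembl release 115 (WBcel235) and bases from RefSeq's copy of it. Other genes were weighted to the members by length class (limits 2000, 5000, 10000 and 20000 bp). A replicate's value at a summit is that of its strongest summit within 200 bp. Scripts used Python 3.11.15 with pandas 2.3.3, numpy 2.4.6, scipy 1.17.1 and matplotlib 3.10.9, and the counting was tested on simulated data. No test between groups was possible, and no p-values are given. The genes and lists were chosen with earlier results of these data known. Genes to be named were those with a called summit, the 12 with the highest pooled signal, those with no pooled summit, and pathway genes with a called summit. The separate result of 1 of the 8 pathway lists is not reported here, though its genes stay in the total. Any other gene was chosen for naming once its values were known.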

Additional observations from a re-analysis of the deposited data

How the results depend on the processing

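The count of 4 genes with a called summit became 7 with 5000 bp in place of 2000 bp, 2 with the gene body only, and 1 (prkl-1) with the stronger part of the called list (at or above its median signal). It was 2 to 3 with the 267 strongest regions of a single replicate, and stayed between 3 and 5 under the other settings. The difference between these genes and the length-standardised share was 7.04 percentage points in the called list and was above 0 under all 11 other settings, from 1.01 to 13.5. Those settings reuse the same genes and libraries, so their shared sign is not independent support. The lowest difference, 1.01, came from 1 gene (2.5%), against a length-standardised 1.49%. In the pooled list the difference was 10.5 points and rose to 26.2 with the stronger part of that list (4523 regions). It was 19.5 to 20.03 points with the 9046 strongest regions of a single replicate and 17.2 within 2000 bp of a TSS only. Among the 1000 strongest pooled regions, a setting chosen after the data were seen, as was assignment to the nearest TSS, the count of 15 was 8 to 12 with a single replicate and 10 to 15 otherwise. The 35 genes with a summit in both replicates became 28 when the summits had to be within 200 bp of each other. The share of other genes was not counted under that setting, so the 28 cannot be set against genes of their length. Of the 12 genes highest by pooled signal, 12 were shared with the order by q value, 11 with replicate 1 alone and 8 with replicate 2 alone. Depth was not recorded, relaxed lists contain background and differ in length, and 4 genes are few. No paired analysis was possible because there was 1 group only.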
